A study of Mus musculus with 9 samples.

Results

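Prdm1 and Bcl6, the genes for the transcriptional repressors Blimp1 and Bcl6, were followed in antigen-specific memory T cells of mouse spleen. They were taken by symbol from the deposited table of counts, as 2 of its 48663 named entries. Both were chosen with earlier results of these data known. The 9 libraries came from cells sorted 30 days after infection with LCMV Arm (lymphocytic choriomeningitis virus, Armstrong strain), and fell into 3 groups of 3. CD4 control cells bound the GP66:I-Ab tetramer and came from mice without the Ox40-Cre transgene. CD4 ThpokAD cells were sorted with that tetramer from mice carrying Ox40-Cre and Thpokfl/fl alleles. CD8 control cells bound the GP33:H-2Db tetramer and, like the CD4 control cells, came from mice without Ox40-Cre. Thpok is the product of Zbtb7b, a zinc finger factor of the CD4 lineage. Ox40 (Tnfrsf4) is a receptor that T cells gain on activation, so deletion by its Cre falls in activated cells and in other cells that express the receptor. The sources used here give neither the ages of the mice nor the floxed status of the controls. Only the ThpokAD mice carried Cre, so an effect of the recombinase and an effect of the deletion cannot be told apart. In the same way, lineage, peptide and tetramer go together in any comparison of CD8 with CD4 cells.

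Blimp1 and Bcl6 are each known to repress the gene of the other. In CD4 T cells Bcl6 is required for follicular helper cells, which express Cxcr5 and help B cells, and Blimp1 opposes that fate and is high in effector cells outside follicles. In CD8 T cells Blimp1 is known for terminal effector differentiation and Bcl6 for the maintenance of memory. The ratio of the transcripts of these genes is therefore often read beside their levels.

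Total counts were 16664474 to 38981516 per library, and 15738 entries passed the filter on low counts, both genes among them. Libraries of the same group differed by more than counting noise, with a chi-square of 32.3 to 146 per degree of freedom, so each was kept as 1 sample. Zbtb7b had 45.0 ± 5.68 CPM (counts relative to library size, scaled by edgeR's TMM factors; SD, n = 3) in CD4 control, 0.807 ± 0.0953 in ThpokAD and 20.8 ± 2.87 in CD8 control libraries. Cd4 was at 1354 ± 57.2, 635 ± 72.4 and 1.28 ± 1.02 CPM in the same order of groups, and Cd8a at 3.24 ± 0.824, 49.6 ± 15.2 and 813 ± 88.3 CPM. Cd4 and Cd8a thus set the CD4 groups apart from the CD8 group, and Zbtb7b was lowest in ThpokAD libraries. Cd8a was still 15.3-fold higher in ThpokAD than in CD4 control libraries (edgeR adjusted p = 0.000286). Cd4 was 2.13-fold lower there (edgeR adjusted p = 0.241).

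Prdm1 lies on the minus strand of chromosome 10 (GRCm38, the build also called mm10) at positions 44437177 to 44528501, and its merged exons are 5579 bp long. Bcl6 lies on the minus strand of chromosome 16 at positions 23965052 to 23988852, with merged exons of 6700 bp. Both are protein coding. The promoter windows of the 2 genes are shown because each factor is known to act on the gene of the other. They are the 300 bases around each start that RefSeq lists (GRCm38.p6), with 250 bases before it and 50 after. RefSeq listed 1 such start for Prdm1, inside the gene body of the longer GENCODE model, and 2 for Bcl6. Sequences are written 5′ to 3′ along the minus strand, and capitals mark matches to the motifs described next.
Prdm1 promoter, chr10:44458699-44458998: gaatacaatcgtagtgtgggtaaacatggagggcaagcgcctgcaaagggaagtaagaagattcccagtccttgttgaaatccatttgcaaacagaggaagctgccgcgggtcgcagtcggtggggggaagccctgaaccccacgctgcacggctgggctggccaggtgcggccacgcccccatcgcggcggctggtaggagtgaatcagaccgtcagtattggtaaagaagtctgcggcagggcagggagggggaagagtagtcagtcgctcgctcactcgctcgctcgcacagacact
Bcl6 promoter 1, chr16:23988803-23989102: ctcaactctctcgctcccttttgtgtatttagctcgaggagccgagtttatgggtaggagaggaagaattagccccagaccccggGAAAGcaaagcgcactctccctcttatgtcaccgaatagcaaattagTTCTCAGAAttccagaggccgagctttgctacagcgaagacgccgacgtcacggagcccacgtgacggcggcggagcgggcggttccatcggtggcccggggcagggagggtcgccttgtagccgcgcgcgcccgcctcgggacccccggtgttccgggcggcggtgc
Bcl6 promoter 2, chr16:23981234-23981533: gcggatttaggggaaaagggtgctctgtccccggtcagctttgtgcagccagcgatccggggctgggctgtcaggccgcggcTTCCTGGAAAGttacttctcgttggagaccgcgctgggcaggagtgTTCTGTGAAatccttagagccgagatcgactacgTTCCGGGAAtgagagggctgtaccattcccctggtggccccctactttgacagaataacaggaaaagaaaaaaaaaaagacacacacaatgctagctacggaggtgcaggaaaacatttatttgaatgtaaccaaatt

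Both strands were searched for GAAAG (the core of the Blimp1 motif), AGNGAAAG (a longer form of it), TTCCTNGAA (Bcl6) and TTCNNNGAA (STAT factors). The Prdm1 window held none of these letters. The first Bcl6 window held GAAAG from base -165 relative to the start and TTCTCAGAA, a STAT match, from base -118. The second Bcl6 window held TTCCTGGAA from base -168, which fits both the Bcl6 and the STAT letters and overlaps a GAAAG that begins at base -162. It also held the STAT matches TTCTGTGAA from base -122 and TTCCGGGAA from base -88. Among 32851 promoter windows of this length, GAAAG was found in 57.3%, AGNGAAAG in 8.63%, TTCCTNGAA in 1.59% and TTCNNNGAA in 8.30%. A match describes the letters only; no binding was measured in these samples.

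Prdm1 was higher in ThpokAD cells than in either control group, and the controls did not differ beyond their spread. Its counts were 410, 750 and 638 in CD4 control replicates 1 to 3, or 25.5, 42.9 and 37.2 CPM. In ThpokAD replicates 1 to 3 there were 2464, 2305 and 2753 counts, or 123, 126 and 146 CPM. In CD8 control replicates 1 to 3 there were 926, 1248 and 1778 counts, or 38.7, 60.5 and 43.8 CPM. Every ThpokAD library lay above all 6 control libraries, while the CD4 and CD8 control libraries overlapped.

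The mean Prdm1 level was 35.2 ± 8.87 CPM in CD4 control, 132 ± 12.5 in ThpokAD and 47.7 ± 11.4 in CD8 control libraries (SD, n = 3 each). Prdm1 was 3.74-fold higher in ThpokAD than in CD4 control cells (log2 fold change 1.90, SE 0.240, 95% interval 1.36 to 2.45; edgeR quasi-likelihood test, adjusted p = 0.00429). Genes called higher at an adjusted p under 0.05 were 1.81% of all tested in that comparison. Genes whose ThpokAD libraries all lay above the CD4 control libraries were 13.2% of those tested. Against CD8 control cells Prdm1 was 2.76-fold higher in ThpokAD cells (log2 fold change 1.47, SE 0.236, edgeR adjusted p = 0.00780), where 4.63% of tested genes were called higher. Between CD8 and CD4 control cells the log2 fold change was 0.44 (95% interval -0.09 to 0.97, edgeR adjusted p = 0.279), an interval that runs from slightly lower to nearly doubled in CD8 cells. All 3 comparisons share libraries with one another and are not independent.

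Bcl6 took another order: it was lowest in CD8 control cells, and the CD4 groups did not differ beyond their spread. Its counts were 1565, 2390 and 1343 in CD4 control replicates 1 to 3, or 97.2, 137 and 78.3 CPM. In ThpokAD replicates 1 to 3 there were 1479, 1565 and 744 counts, or 73.8, 85.6 and 39.5 CPM. In CD8 control replicates 1 to 3 there were 484, 318 and 678 counts, or 20.2, 15.4 and 16.7 CPM. The CD8 libraries all lay below the 6 CD4 libraries, and ThpokAD replicate 2 lay above CD4 control replicate 3.

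The mean Bcl6 level was 104 ± 29.8 CPM in CD4 control, 66.3 ± 24.0 in ThpokAD and 17.5 ± 2.50 in CD8 control libraries (SD, n = 3 each). Between ThpokAD and CD4 control cells the log2 fold change was -0.65 (SE 0.306, 95% interval -1.34 to 0.04, edgeR adjusted p = 0.354), so the interval reaches from a clear reduction to no change. Bcl6 was 5.96-fold lower in CD8 than in CD4 control cells (log2 fold change -2.58, SE 0.324, edgeR adjusted p = 0.00117), a comparison with 6.55% of tested genes called lower and 16.6% with no overlap in that direction. It was 3.80-fold higher in ThpokAD than in CD8 control cells (log2 fold change 1.92, SE 0.317, edgeR adjusted p = 0.00856), beside 4.63% of tested genes called higher and 14.6% with no overlap in that direction. The libraries are of bulk cells, so fewer cells with a transcript and less of it per cell cannot be told apart. All 6 results for the 2 genes kept their direction and their side of the threshold in the 19 alternative fits.

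**Figure D1:**
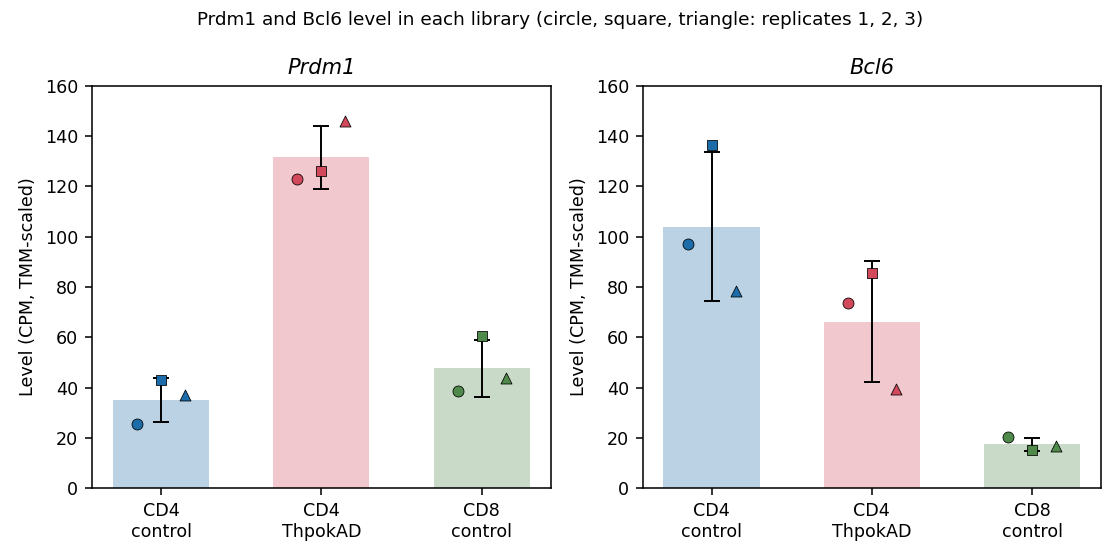
Prdm1 (left) and Bcl6 (right) in each of the 9 libraries, in CPM, by group; points are libraries, with a different marker for each replicate number, and bars give the mean ± SD of 3. Prdm1 stands apart in the 3 ThpokAD libraries, between 123 and 146 CPM, and Bcl6 in the 3 CD8 control libraries, between 15.4 and 20.2 CPM.

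**Figure D2:**
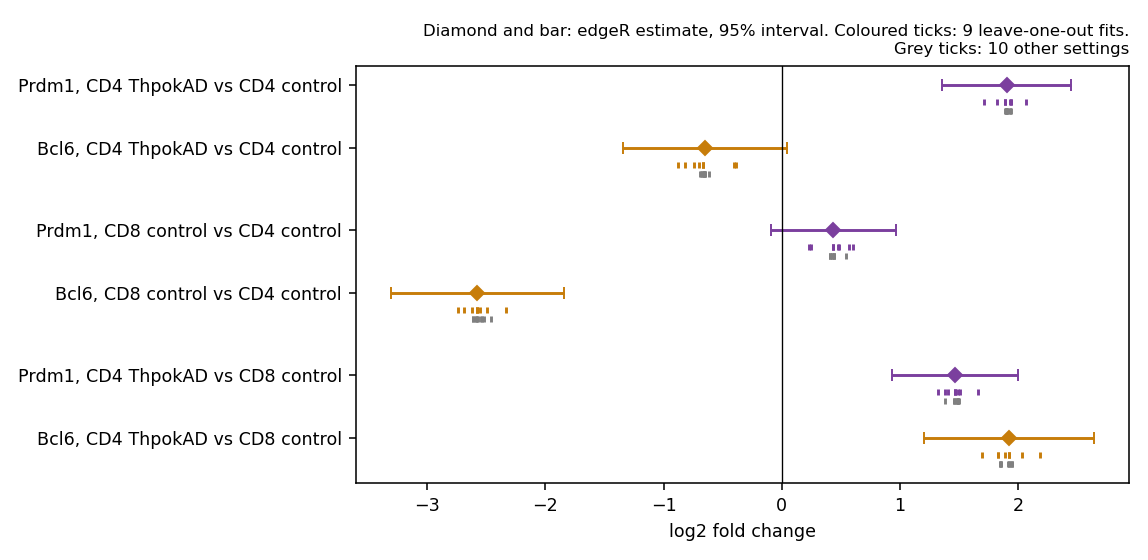
Log2 fold changes of Prdm1 and Bcl6 in the 3 comparisons; diamonds and bars are the edgeR estimates and their 95% intervals, and ticks are the alternative fits. The intervals of Bcl6 between ThpokAD and CD4 control cells, and of Prdm1 between the controls, include 0; the other 4 do not.

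Dividing by exon length allows the 2 genes to be compared with each other. Per kilobase of exon, Prdm1 had 6.30 ± 1.59 CPM and Bcl6 15.5 ± 4.44 CPM in CD4 control libraries. In ThpokAD libraries Prdm1 had 23.6 ± 2.25 and Bcl6 9.89 ± 3.58 CPM per kilobase, and in CD8 control libraries 8.54 ± 2.04 and 2.60 ± 0.373. Bcl6 was thus the more abundant per length in CD4 control cells and Prdm1 in the other groups. Among the 15215 tested genes with a known length, Prdm1 stood above 48.7 to 60.0% in the CD4 control libraries, 81.6 to 84.5% in ThpokAD and 57.1 to 67.5% in CD8 control. Bcl6 stood above 68.9 to 80.6%, 54.1 to 70.8% and 36.0 to 40.6% in the same groups.

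The ratio of Prdm1 to Bcl6 counts needs no scaling between libraries. It was 0.262, 0.314 and 0.475 in CD4 control replicates 1 to 3. In ThpokAD replicates 1 to 3 it was 1.67, 1.47 and 3.70, and in CD8 control replicates 1.91, 3.92 and 2.62. Every CD4 control library held fewer Prdm1 than Bcl6 counts and every other library more. The 95% exact binomial interval was 0.432 to 0.522 in the highest CD4 control library and 1.38 to 1.57 in the lowest ThpokAD library. Such intervals take in the sampling of reads within a library and leave out the spread between libraries. Amplified reads that carry no molecular identifier cannot be counted as separate molecules, so the intervals may be too narrow even for counting error.

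On the log2 scale the ratio was -1.56 ± 0.44 in CD4 control, 1.06 ± 0.72 in ThpokAD and 1.43 ± 0.52 in CD8 control cells (SD, n = 3 each). It was 6.15-fold higher in ThpokAD than in CD4 control cells (2.62 on the log2 scale; two-sided exact permutation test, p = 0.1, adjusted over 3 comparisons 0.15). It was 7.96-fold higher in CD8 than in CD4 control cells (2.99 on the log2 scale; exact permutation p = 0.1, adjusted 0.15). With 3 libraries against 3, an exact p of 0.1 is the smallest the design allows. ThpokAD and CD8 control libraries overlapped, with a difference of -0.37 on the log2 scale (exact permutation p = 0.5, adjusted 0.5). An exact permutation test over the 3 groups together gave p = 0.0179 over 1680 assignments, of which the smallest possible is 0.00357.

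ThpokAD and CD8 control cells reached overlapping ratios at different levels of both transcripts. The sum of the 2 genes was 139 ± 35.1 CPM in CD4 control, 198 ± 13.1 in ThpokAD and 65.1 ± 9.34 in CD8 control libraries (SD, n = 3 each). As given above, both genes were called higher in ThpokAD than in CD8 control cells. Against CD4 control cells, ThpokAD cells differed in Prdm1 by the test and CD8 control cells in Bcl6 by the test. The log2 fold changes come from the edgeR fit and the ratios from counts within libraries. The difference of the 2 fold changes within a comparison is therefore near the difference in log2 ratio given above, but not equal to it.

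**Figure D3:**
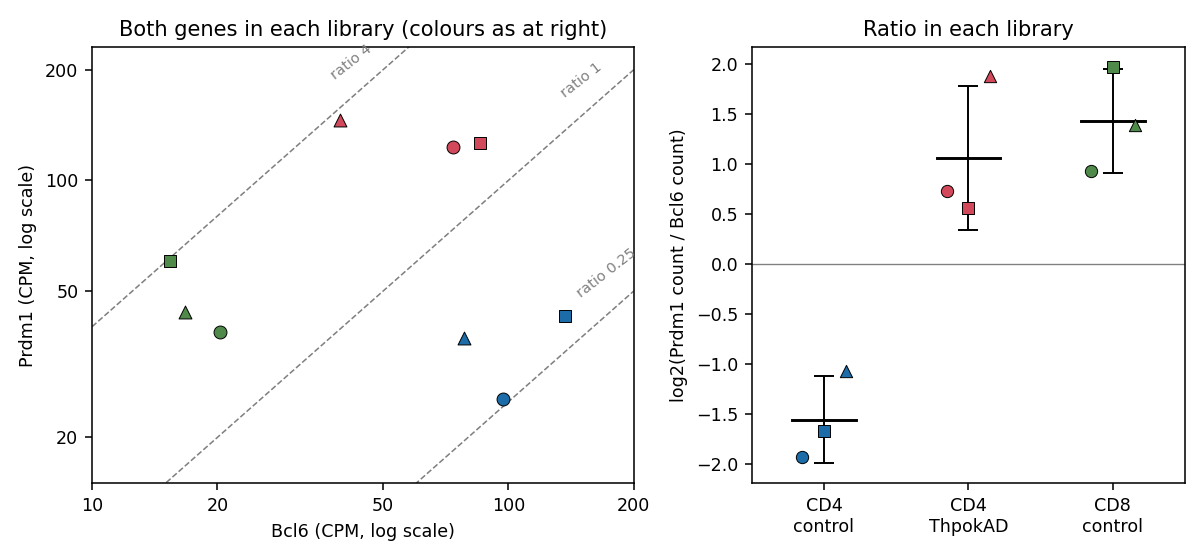
Left, Prdm1 against Bcl6 in each library, both in CPM on log axes, with dashed lines at ratios of 0.25, 1 and 4; right, the log2 ratio of Prdm1 to Bcl6 counts by group, with bars for the mean ± SD of 3. The CD4 control libraries lie below a ratio of 1, and the ThpokAD and CD8 control libraries lie above it at different levels of both genes.

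Within groups, the order of the libraries by one gene was not the reverse of the order by the other in every group. In CD4 control cells replicate 2 was highest for both genes. In ThpokAD cells replicate 3 was highest for Prdm1 (146 CPM) and lowest for Bcl6 (39.5 CPM), and replicate 2 held the most Bcl6 (85.6 CPM). In CD8 control cells replicate 1 was lowest for Prdm1 (38.7 CPM) and highest for Bcl6 (20.2 CPM), and replicate 2 was the reverse. With 3 libraries a group and groups that stand apart, no correlation between the genes was computed.

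Several other genes followed the spread of Bcl6 among ThpokAD libraries; they were chosen after their values were seen. Cxcr5, the follicular homing receptor, had 44.3, 143 and 33.3 CPM in ThpokAD replicates 1 to 3, against 178 to 258 CPM in CD4 control libraries. Tox2, a factor of follicular helper cells, had 25.7, 66.2 and 16.5 CPM, and Maf, another, had 73.9, 124 and 54.6 CPM. Replicate 2 was thus highest and replicate 3 lowest for Bcl6 and for each of these genes. Not all genes counted below as follicular helper genes ran this way. Angptl2 was lowest in replicate 2, and Icos was highest in replicate 1. Whether the follicular helper list as a whole followed Bcl6 among these libraries was not tested. Zeb2, which encodes a transcriptional repressor and is counted below among terminal effector genes, took another order, with 168, 189 and 258 CPM. Cxcr5 was not called between ThpokAD and CD4 control cells (log2 fold change -1.63, edgeR adjusted p = 0.165), but it was called by DESeq2 and when ThpokAD replicate 2 was left out.

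Of 14 relatives of Prdm1, the PRDM family and Zfp683 (Hobit, a close relative of Blimp1 in resident lymphocytes), 10 were tested and 0 were called in any of the 3 comparisons by edgeR, DESeq2 or limma. At an unadjusted p under 0.05 there were 0, 1 and 2 in ThpokAD against CD4 control, CD8 against CD4 control and ThpokAD against CD8 control cells. Zfp683 had 5.64 ± 2.96 CPM in CD4 control, 8.80 ± 3.52 in ThpokAD and 8.02 ± 1.61 in CD8 control libraries (SD, n = 3 each). Of 23 listed BTB zinc finger relatives of Bcl6, 20 were tested. Between ThpokAD and CD4 control cells 1 was called, the deleted gene Zbtb7b itself. CD8 against CD4 control cells gave 1 called higher, Zbtb7a, and 4 lower, beside 5.13% and 6.55% of all tested genes in these directions. Zbtb7a was not called without CD4 control replicate 1 or 2 (largest adjusted p 0.0626). Of the lower genes, Zbtb10 was at 17.0 ± 5.60 CPM in CD4 control cells and had no count in any CD8 library, at least 485-fold lower against a floor of 3 counts over the group. The closest relative, Bcl6b, had counts in only 1 library (0.159 CPM in ThpokAD replicate 3) and was not tested.

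Of 8 cofactors through which Blimp1 is known to act, 0 were called by edgeR in ThpokAD against CD4 control cells (1 at an unadjusted p under 0.05, 0 by DESeq2 or limma). In CD8 against CD4 control cells edgeR called 0 of them as well (3 at an unadjusted p under 0.05, 2 by DESeq2, 0 by limma on CPM and 1 on the authors' scaled values). Between ThpokAD and CD8 control cells Ehmt2 (the histone methyltransferase G9a) was called higher, and Prmt5 and Kdm1a lower, beside 4.63% and 1.91% of all tested genes. Ehmt2 lost its call when either ThpokAD replicate 1 or 3, or else CD8 control replicate 2 or 3, was left out (largest adjusted p 0.066), and Prmt5 and Kdm1a kept their calls in 2 and 1 of 9 fits that left out a library. Of 15 Bcl6 corepressors, 0 were called by edgeR in ThpokAD cells against either control group; 3 and 4 had an unadjusted p under 0.05 against CD4 and CD8 control cells, and DESeq2 called 2 in each and limma 0. CD8 cells had 2 lower than CD4 control cells, beside 6.55% of all tested genes: Kdm2b, a subunit of a noncanonical Polycomb complex with Bcor, by 3.05-fold, and Tbl1x, of the SMRT and NCoR complexes, by 1.72-fold.

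Among 17 listed inducers of Prdm1, 5 were higher and 2 lower in ThpokAD than in CD4 control cells, with a median log2 fold change of 0.05 beside 0.0035 over all tested genes. Called genes were 2.74% of all tested, 1.81% higher and 0.928% lower. The T-box factor Eomes rose 12.4-fold (7.60 ± 3.98 to 94.0 ± 21.8 CPM, edgeR adjusted p = 0.00169). Id2, an inhibitor of E proteins, rose 2.42-fold (adjusted p = 0.00169). Tbx21 (T-bet) rose 2.08-fold (adjusted p = 0.0140), Il10ra 2.51-fold and Zeb2 10.04-fold, while Il21r fell 1.76-fold and Stat5b 1.71-fold. Leaving out single libraries ended each of these last 5 calls. Tbx21 was not called without replicate 1 or 3 of the CD4 control or replicate 3 of ThpokAD (largest adjusted p 0.0635), nor Il10ra without replicate 1 or 3 of the CD4 control or replicate 1 or 2 of ThpokAD (0.0777). Zeb2 was not called without CD4 control replicate 1 or any 1 ThpokAD library (0.103), nor Stat5b without any 1 CD4 control library or ThpokAD replicate 1 or 3 (0.0990).

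Irf4, a factor known to bind and activate Prdm1, was not called between the CD4 groups. It had 127 ± 7.30 CPM in CD4 control and 131 ± 23.5 in ThpokAD libraries (log2 fold change 0.05, edgeR adjusted p = 0.972). In CD8 control libraries it had 3.72 ± 1.98 CPM, 34.6-fold less than in CD4 control cells (edgeR adjusted p = 9.8e-05). The part of Irf4 in the level of Prdm1 was not tested. Batf, the partner of Irf4, was at 200 ± 35.1, 114 ± 18.6 and 74.6 ± 18.6 CPM in CD4 control, ThpokAD and CD8 control libraries. Batf was called lower in CD8 than in CD4 control cells (2.67-fold, edgeR adjusted p = 0.00397) and not in ThpokAD (adjusted p = 0.105, called by DESeq2). Stat3, which carries IL-6 and Il21r signals to both genes, was at 531 ± 23.0, 489 ± 52.2 and 390 ± 13.4 CPM.

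Of the same 17 inducers, 5 were higher and 6 lower in CD8 than in CD4 control cells, beside 11.7% of all tested genes called in either direction. Those called higher were the 5 named above as higher in ThpokAD cells; both comparisons use the CD4 control libraries. In ThpokAD against CD8 control cells, 2 were higher (Irf4 and Il21r) and 1 lower (Id2), beside 6.54% of tested genes called, 4.63% higher and 1.91% lower.

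Of 17 genes known to support Bcl6 expression, 0 were higher and 6 lower in ThpokAD than in CD4 control cells, where 0.928% of tested genes were called lower, with a median log2 fold change of -0.69. Tcf7, whose product TCF-1 activates Bcl6 and restrains Prdm1, fell 2.31-fold (1502 ± 113 to 650 ± 33.6 CPM, edgeR adjusted p = 0.00468). The costimulatory receptor Icos fell 2.30-fold (1896 ± 304 to 825 ± 103 CPM, adjusted p = 0.00624). Il6ra, the IL-6 receptor chain, fell 4.28-fold (adjusted p = 0.0113), and Il21r, Cd28 and Lef1 fell too. The calls of Cd28 (1.39-fold, edgeR adjusted p = 0.0447) and Lef1 (1.61-fold, adjusted p = 0.0460) lay close to the threshold. Il6ra was no longer called when CD4 control replicate 2 or ThpokAD replicate 1 was left out, nor Il21r when any 1 ThpokAD library was (largest adjusted p 0.057 and 0.0916).

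Against CD4 control cells, CD8 control cells had 0 members of this list higher and 12 lower, with a median log2 fold change of -1.96 beside 0.01 over all tested genes, of which 6.55% were called lower. Icos fell 23.2-fold there (edgeR adjusted p = 2.5e-06) and Cd28 3.61-fold (adjusted p = 1.42e-05). Tox2 had no count in any CD8 control library, at least 2070-fold below CD4 control cells. In ThpokAD against CD8 control cells 9 were higher and 1, Lef1, lower, beside 4.63% and 1.91% of all tested genes, with a median log2 fold change of 1.62. Whether the counts of lower members in the 2 comparisons with CD4 control cells differ was not tested.

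Of 8 genes known to restrain Bcl6, 1 was higher (Id2) and 2 lower in ThpokAD than in CD4 control cells, beside 1.81% and 0.928% of all tested genes. The lower genes were Il7r, the IL-7 receptor chain, by 3.52-fold (1108 ± 176 to 315 ± 42.3 CPM, edgeR adjusted p = 0.000381) and Stat5b by 1.71-fold. CD8 control cells had Id2 higher than CD4 control cells and Stat5b, Foxo1 and Stat5a lower, beside 5.13% and 6.55% of all tested genes, and Il7r was at 1243 ± 17.1 CPM. ThpokAD cells had Foxo1 higher than CD8 control cells and Il7r and Id2 lower, beside 4.63% and 1.91%. That Foxo1 call was lost without replicate 1 of either group (largest edgeR adjusted p 0.0642). Foxo1 had 281 ± 14.4 CPM in CD4 control, 264 ± 19.2 in ThpokAD and 171 ± 18.9 in CD8 control libraries. Klf2, which opposes the follicular program, was not called by edgeR in any comparison, at 830 ± 132, 1144 ± 136 and 1110 ± 93.0 CPM. DESeq2 called it in ThpokAD against CD4 control cells (edgeR adjusted p = 0.139), and edgeR without scaling factors called it in CD8 against CD4 control cells (0.0895 with them). Bach2, a repressor of Prdm1 in lymphocytes, was not called either, at 18.2 ± 6.87, 20.7 ± 8.80 and 17.0 ± 2.92 CPM.

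**Figure D4:**
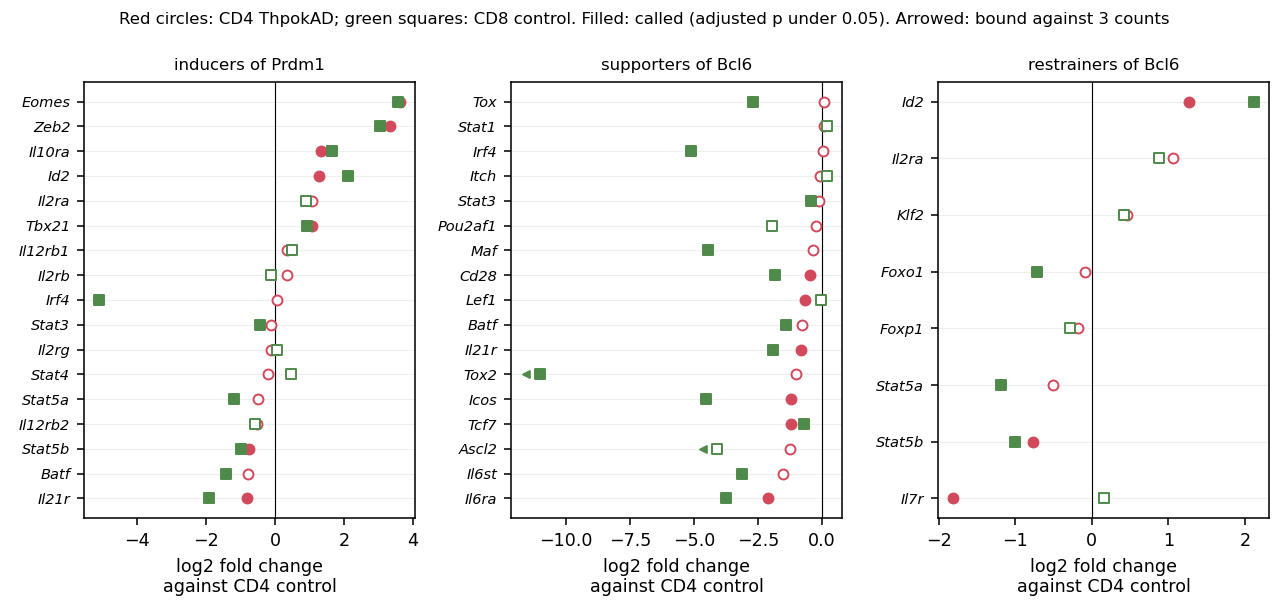
Log2 fold changes of genes known to induce Prdm1, support Bcl6 or restrain Bcl6, in ThpokAD (red) and CD8 control (green) cells, each against CD4 control cells; filled points were called by edgeR, open points were not, and arrows mark bounds for genes with no count in CD8 cells. Eomes lies far to the right in both comparisons, and Irf4 lies at 0.05 in ThpokAD and at -5.11 in CD8 control cells.

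Of 15 genes reported in the literature to be repressed by Blimp1, 0 were higher and 3 lower in ThpokAD than in CD4 control cells (Il7r, Tcf7 and S1pr1), beside 0.928% of all tested genes called lower, with a median log2 fold change of -0.97. S1pr1, the receptor for egress from tissue, had 1353 ± 97.9 CPM in CD4 control and 639 ± 30.9 in ThpokAD libraries, and its call (edgeR adjusted p = 0.0154) was lost without any 1 of the 6 CD4 libraries (largest 0.071). Between CD8 and CD4 control cells 0 of these 15 were higher and 6 lower, with a median of -1.18. Genes called lower were 6.55% of all tested in that comparison. Fos was 12.3-fold and Ccr7 7.15-fold lower there. In ThpokAD against CD8 control cells Fos, Ccr7 and Il2 were higher and Il7r lower, with a median of 0.28. Genes called higher and lower were 4.63% and 1.91% of all tested in that comparison. Il2, at 4.27 ± 3.29 CPM in ThpokAD cells, kept its call in 3 of 9 fits that left out a library. Some genes of this list are also on the lists of Bcl6 supporters and restrainers. The part of Blimp1 in the levels of these genes was not tested.

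Genes reported to be repressed by Bcl6 moved in both directions in all 3 comparisons. Of 22, 7 were higher and 5 lower in ThpokAD than in CD4 control cells, 6 higher and 6 lower in CD8 than in CD4 control cells, and 7 higher and 3 lower in ThpokAD than in CD8 control cells. Called genes were 2.74%, 11.7% and 6.54% of all tested in these comparisons, and the medians of the list were 0.16, 0.15 and 0.19. In ThpokAD cells the higher genes included Gzmb (granzyme B, 16.0-fold, edgeR adjusted p = 0.000122), Prf1 (perforin, 9.81-fold, adjusted p = 0.000336) and Id2. The lower genes included Il7r, S1pr1 and the oxysterol receptor gene Gpr183. In CD8 against CD4 control cells the higher genes were Id2, Prf1, Gzmb, Selplg, Tbx21 and Ccnd2. Among the lower genes there, Cd69 was 12.4-fold and Gpr183 3.91-fold lower. The part of Bcl6 in the levels of these genes was not tested.

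The programs for which the 2 factors are known were also counted. Of 12 terminal effector genes, 10 were higher and 0 lower in ThpokAD than in CD4 control cells, beside 1.81% of all tested genes called higher, with a median log2 fold change of 3.67. Cx3cr1, a chemokine receptor of effector cells, rose 47.9-fold (7.20 ± 1.70 to 345 ± 61.7 CPM, edgeR adjusted p = 3.35e-05). Klrg1 rose 25.8-fold (9.11 ± 2.82 to 235 ± 56.2 CPM) and Gzma 228-fold. CD8 control cells had 9 higher and 1, Il10, lower than CD4 control cells, beside 5.13% and 6.55% of all tested genes, with a median of 2.89. Between ThpokAD and CD8 control cells 3 were higher, Il10, Gzmb and Havcr2, and 1, Id2, lower, beside 4.63% and 1.91%. Havcr2 (edgeR adjusted p = 0.0391) kept its call in 3 of 9 fits that left out a library.

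Of 16 follicular helper genes, 0 were higher and 4 lower in ThpokAD than in CD4 control cells (Icos, Angptl2, Tnfsf8 and Btla), beside 0.928% of all tested genes called lower, with a median log2 fold change of -1.10. Tnfsf8 was not called without CD4 control replicate 2 or ThpokAD replicate 1 (largest adjusted p 0.0519), nor Btla without any 1 CD4 control library or ThpokAD replicate 1 or 3 (0.0889). CD8 control cells had 0 higher and 12 lower than CD4 control cells, beside 6.55% called lower, with a median of -4.13, or -3.96 with genes that had no count in CD8 cells set at their bounds. In ThpokAD against CD8 control cells 9 were higher and 0 lower, beside 4.63% called higher, with a median of 4.01, or 3.64 with bounds. Pdcd1, the gene of PD-1, had 254 ± 58.9 CPM in CD4 control, 416 ± 125 in ThpokAD and 24.9 ± 5.30 in CD8 control libraries. The lists of regulators, reported targets and programs overlap in their members, and the counts are not independent of one another.

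**Figure D5:**
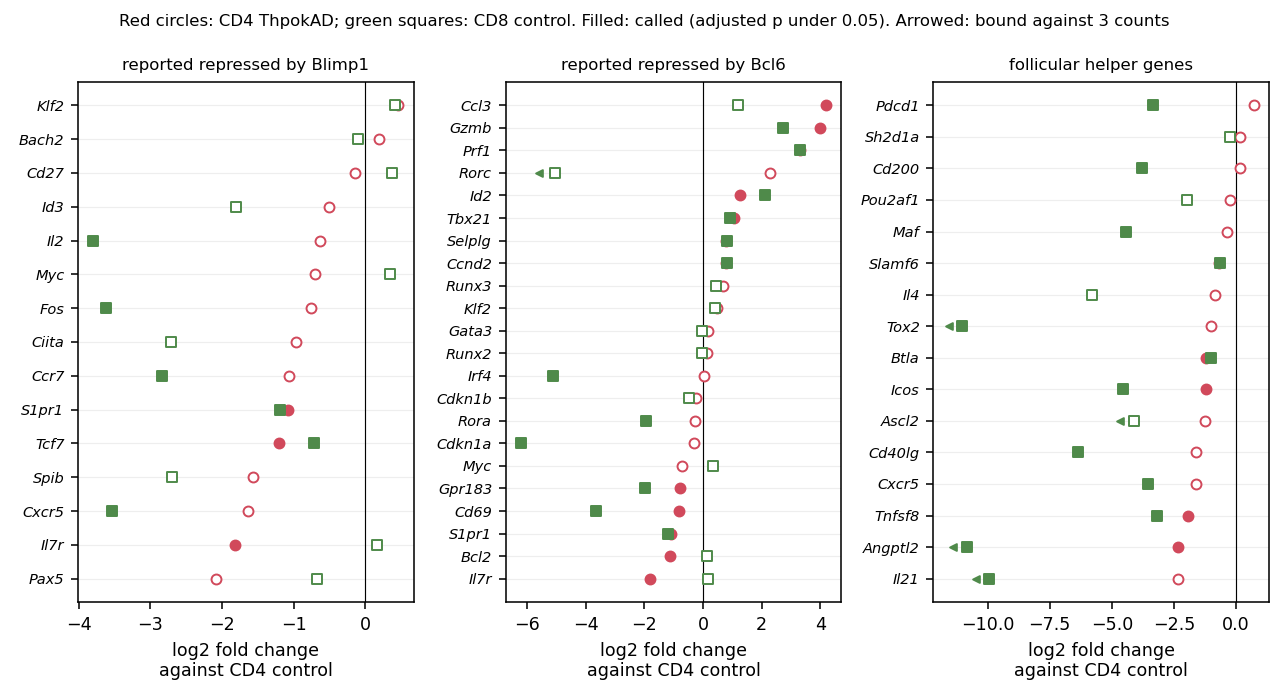
Log2 fold changes of genes reported as repressed by Blimp1 or by Bcl6 and of follicular helper genes, in ThpokAD (red) and CD8 control (green) cells, each against CD4 control cells; filled points were called by edgeR, open points were not, and arrows mark bounds for genes with no count in CD8 cells. Called follicular helper genes lie to the left in both comparisons, and called genes reported as repressed by Bcl6 lie on both sides.

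Other cells that express these genes were looked for through their markers. Of 8 plasma cell markers, where Blimp1 is high, the summed level was 504 to 535 CPM in CD4 control, 374 to 428 in ThpokAD and 154 to 424 in CD8 control libraries. Xbp1, which T cells also express, made up much of it (360 ± 4.93, 256 ± 41.2 and 136 ± 10.9 CPM), and Irf4 is on this list too. Jchain, on the same list, ranged from 1.37 to 53.2 CPM in CD4 control, from 0.0547 to 47.2 in ThpokAD and from 0 to 286 in CD8 control libraries. Sdc1 (CD138) was at 0.399, 6.73 and 0 CPM in ThpokAD replicates 1 to 3, and Tnfrsf17 was at 0 in all 3. Of 6 germinal centre B cell markers, where Bcl6 is high, the sum was 57.2 to 124, 72.2 to 122 and 103 to 141 CPM, and Mef2b and Rgs13 were at 0 in all 3 ThpokAD libraries. The sums of 9 B cell markers were 33.9 to 51.6, 22.1 to 62.0 and 39.5 to 63.0 CPM.

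Regulatory T cells, a source of Prdm1, express Ox40 as well. The sum of their 8 markers was 571 to 633 CPM in CD4 control, 598 to 826 in ThpokAD and 148 to 173 in CD8 control libraries. Of these markers only Lrrc32 was called higher in ThpokAD than in CD4 control cells (14.4-fold, edgeR adjusted p = 0.00868), beside 1.81% of all tested genes. Foxp3, chosen after its values were seen, had 50.1, 11.8 and 25.6 CPM in ThpokAD replicates 1 to 3 against 0 to 4.52 in CD4 control libraries. It was 12.7-fold higher by edgeR (adjusted p = 0.207) and was called only by limma on the authors' scaled values. Prdm1 was at 123, 126 and 146 CPM in ThpokAD replicates 1 to 3. Of NK cell markers, 5 of 7 tested were called higher in ThpokAD than in CD4 control cells, beside 1.81% of all tested genes. The same number was called higher in CD8 than in CD4 control cells, beside 5.13%. The sum of all 8 was 24.4 to 27.5, 1180 to 1635 and 475 to 856 CPM. Gzma and Eomes, which effector T cells express, are among them, and Ncr1 was at 0, 2.19 and 3.18 CPM in ThpokAD replicates 1 to 3 and at 0 in all CD4 control libraries. Sums of 10 myeloid markers were 161 to 266, 280 to 327 and 99.3 to 371 CPM, and those of 8 dendritic cell markers 197 to 438, 412 to 656 and 271 to 333 CPM. Much of the dendritic sum was Itgax (means of 13.9, 186 and 214 CPM) and H2-Ab1 (244, 309 and 56.2 CPM). Of 7 dendritic markers tested, only Itgax was called higher in ThpokAD than in CD4 control cells and 0 lower, beside 1.81% and 0.928% of all tested genes. The part of plasma, B, regulatory T, NK, myeloid or dendritic cells in the differences of Prdm1 and Bcl6 was not tested.

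The neighbours of both genes were not called in any comparison by edgeR. Atg5, an autophagy gene 72.9 kb from Prdm1, was at 49.2 ± 4.85 CPM in CD4 control, 78.9 ± 6.06 in ThpokAD and 75.8 ± 20.5 in CD8 control libraries. Its edgeR adjusted p was 0.136 in ThpokAD and 0.0837 in CD8 cells against CD4 control cells, and DESeq2 called it in both. Prep, on the other side, was at 53.0 ± 5.50, 67.8 ± 8.99 and 61.4 ± 3.33 CPM. Lpp, 405 kb from Bcl6, was at 47.5 ± 8.05, 57.9 ± 11.2 and 33.0 ± 7.70 CPM. DESeq2 called it in ThpokAD against CD8 control cells (edgeR adjusted p = 0.0779). Rtp2, on the other side of Bcl6, had no count in any library. Gm37419, a model of 114 bp on the opposite strand, overlaps Bcl6. The library kits named in the labels do not mark strand, so its reads and those of Bcl6 cannot be told apart, and it held at most 0.444 CPM in any library.

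Genes whose log2 CPM ran most like each gene across the 9 libraries were ranked by Pearson's r among 8823 genes. For Prdm1 these were Orc6 (0.981), Eno1b (0.980), Gngt2 (0.962), Ccl3 (0.960) and Plek (0.960). The most opposed were Sidt1 (-0.969), Ppan (-0.952), Zbtb7b (-0.951), Il16 (-0.946) and Ccm2 (-0.935). For Bcl6 the most alike were Zbtb10 (0.988), Cd274 (0.982), Ppm1b (0.980), Plcxd2 (0.976) and Nfatc1 (0.975). The most opposed were Arpc5l (-0.973), Zfp961 (-0.973), Arl6ip5 (-0.969), Nt5c (-0.967) and Ndufaf1 (-0.967). These values describe 9 libraries that share 3 groups and say nothing beyond that.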

How the data were processed

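RNA of 9 samples of tetramer-sorted spleen T cells was sequenced. Per the submitters' processing notes, tools included STAR, HTSeq, Trimmomatic, DESeq2 and bcl2fastq 2.17 with the mm10 build, without their roles. The annotation release and strand setting are not given in the sources used here. Deposited by the authors were unnormalized whole-number counts by symbol, and a second table with a signal scaled by the authors, in which each value was the count times 1 factor per library. Only an alternative test used that signal.

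Groups came from sample titles. The labels do not say that replicates were separate animals, so the spread behind each p-value is that of these samples alone and may be technical. After edgeR's filterByExpr (minimum count 10, minimum total 15), 15738 of 48663 entries, with at least 99.8% of each library's 16664474 to 38981516 counts, were tested by edgeR 4.0.16 (R 4.3.3) with the quasi-likelihood test, TMM scaling, all 9 libraries in 1 fit, 1 coefficient per group and Benjamini-Hochberg adjustment. An adjusted p under 0.05 was called. The fit was tested on simulated data. SE is the log2 fold change over the square root of F. A fold against a group with no count uses 3 counts over that group and is a lower bound. Ratios were compared by exact permutation tests of log2 ratios. Coordinates are 1-based, from GENCODE M21 (the file's own release may differ), and promoters are from RefSeq.

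The 19 alternatives were RLE, upper-quartile or no scaling, no filter, DESeq2 1.42.0, limma 3.58.1 (limma-trend) on log2 CPM or on log2 of the authors' scaled signal plus 0.5, a robust fit, only the 6 libraries compared, the replicate number as a block, and leaving out each library.

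Named were both genes in every comparison, Zbtb7b, Cd4 and Cd8a, up to 4 called members of each pathway list with the smallest adjusted p, 11 known regulators whether called or not, chromosome neighbours, and the 5 genes most and least correlated with each, leaving out predicted genes and genes under 10 CPM in every group. Names beyond this rule, among them Cxcr5, Tox2, Maf, Zeb2, Xbp1 and Foxp3, were chosen after their values were seen. Both genes and all lists were chosen with earlier results of these data known. One gene of the list of genes reported as repressed by Blimp1 and one germinal centre B cell marker are not reported here and are left out of the counts, medians and sums of their lists.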

Additional observations from a re-analysis of the deposited data

How the results depend on the processing

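Prdm1 and Bcl6 kept their direction and their side of the threshold in all 3 comparisons under all 19 alternatives. The adjusted p of Prdm1 ranged from 1.23e-11 to 0.0241 in ThpokAD against CD4 control cells, from 0.165 to 0.6 in CD8 against CD4 control cells and from 1.62e-07 to 0.0348 in ThpokAD against CD8 control cells. That of Bcl6 ranged from 0.237 to 0.693, from 2.83e-14 to 0.00899 and from 6.59e-08 to 0.0395. Leaving out 1 library, the difference in log2 ratio was 2.21 to 2.87, 2.72 to 3.24 and -0.786 to -0.103, and p over 3 groups was 0.00714 to 0.0321.

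The number of genes called over the whole table depended more on the setting. In ThpokAD against CD4 control cells it was 431 by edgeR, 1290 by DESeq2, 721 by limma on the authors' scaled values and 181 to 477 with 1 library left out, the lowest without ThpokAD replicate 1. In CD8 against CD4 control cells it was 1839, 2977 by DESeq2 and 1058 to 1667 with 1 library left out, the lowest without CD4 control replicate 2. In ThpokAD against CD8 control cells it was 1030, 2171 by DESeq2 and 589 to 788 with 1 library left out, the lowest without ThpokAD replicate 1. Without scaling factors the median log2 fold change of all genes in CD8 against CD4 control cells moved from 0.0101 to 0.117. The share of called genes that were higher then went from 43.9 to 56.5% there and from 70.8 to 59.9% in ThpokAD against CD8 control cells.

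Replicate numbers occur in every group. Deviations from the group means had correlations of -0.0454 to 0.062 between libraries of the same number, and of -0.0475 to 0.0316 between libraries of different numbers. Such correlations do not settle whether libraries of the same number were paired. With the replicate number as a block, 281, 1461 and 684 genes were called in the 3 comparisons, and no call of Prdm1 or Bcl6 changed. Of the genes named in the text, the block ended the calls of Zeb2 (adjusted p = 0.0629), Il10ra (0.0554) and Stat5b (0.0590) in ThpokAD against CD4 control cells. Against CD8 control cells, ThpokAD cells lost those of Foxo1 (0.05004), Foxp3 (0.0660), Kdm1a (0.0990) and Il2 (0.0790). The mean paired ratio differences were 2.62, 2.99 and -0.372. With equal numbers in each group they equal the unpaired ones by arithmetic, so they check nothing.

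Among genes named in the text, 13 fits changed the sign of a result that was not called in either fit, and the cause was not tested. Without scaling factors these were Bach2 in CD8 against CD4 control cells (adjusted p = 0.990 there), and Klf2 (0.912) and Atg5 (0.964) in ThpokAD against CD8 control cells. The others left out 1 library, and the adjusted p over all such fits is given. In ThpokAD against CD4 control cells Irf4 (0.947 to 0.994) changed sign without ThpokAD replicate 3, and Bach2 (0.617 to 1) without CD4 control replicate 1 or ThpokAD replicate 1. In CD8 against CD4 control cells Bach2 (0.767 to 0.972) did so without CD4 control replicate 2 or CD8 control replicate 1. In ThpokAD against CD8 control cells this held for Klf2 (0.730 to 1) without ThpokAD replicate 3 or CD8 control replicate 3, and for Zfp683 (0.712 to 0.9995) without ThpokAD replicate 2. It also held for Atg5 (0.394 to 1) without CD8 control replicate 2 and for Il2ra (0.579 to 0.992) without ThpokAD replicate 1.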
